A study of Mus musculus with 6 samples.

Results

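Wnt proteins are secreted, lipid-modified ligands that bind the Frizzled (Fzd) family of seven-pass membrane receptors. When a Frizzled and the co-receptor Lrp5 or Lrp6 are engaged together, β-catenin is spared from destruction and enters the nucleus, where it acts with TCF/LEF factors on target genes, and a further set of Wnt signals runs through Frizzleds without β-catenin. Secreted antagonists act outside the cell: the Sfrp proteins, Frzb and Wif1 bind Wnt ligands, and Dkk1, Dkk2 and Dkk4 bind Lrp5 and Lrp6, whereas Dkk3 is a related protein without established binding to these co-receptors. In the adult heart this system is known for its reactivation after infarction, mainly in cells of the scar, and in the adult brain for its part in synapse maintenance and hippocampal neurogenesis.

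The genes described here are the mouse Wnt ligands, Frizzleds, Lrp5 and Lrp6 and the secreted antagonists of the Sfrp and Dkk families with Frzb and Wif1. The members were taken by gene symbol, but the family was chosen with earlier results of these data known. They number 41 of the 35485 features in the count tables: 19 ligands, 10 Frizzleds, 2 co-receptors and 10 antagonists, on 15 chromosomes. Dkk3 is counted among the antagonists by its family, not by an established action on Lrp5 or Lrp6. RNA was sequenced from left ventricle, hippocampus and prefrontal cortex of male C57BL/6 mice (C57BL/6N in the study's methods), 8 weeks after permanent ligation of the left anterior descending coronary artery that had led to chronic heart failure (CHF), or after thoracotomy without ligation (sham). Every tissue has 1 library from pooled RNA of 3 CHF mice and 1 library from pooled RNA of 6 sham mice, so 6 libraries carry the study and no spread between mice is held in the values. Both groups had anaesthesia and thoracotomy as young adults, and no transgene was involved. The sources used here do not say whether scar, border or remote muscle of the left ventricle was taken.

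The libraries held 15.7 to 25.9 M unique gene reads. A list of neuron markers summed to 85.5 and 138 RPM (reads per 1 M unique gene reads) in CHF and sham ventricle, against 12883 to 13751 in the brain libraries, and in ventricle nearly all of this sum came from Camk2a (1066 reads in CHF and 1848 in sham), Slc17a7 (465 in CHF and 297 in sham) and Tubb3 (156 in CHF and 12 in sham), while the other 5 markers had at most 5 reads. Among marker lists of other cells, the fibroblast and matrix list summed to 8040 RPM in CHF ventricle and 959 in sham ventricle, the macrophage list to 1158 in CHF and 334 in sham, and the cardiomyocyte list to 49156 in CHF and 75567 in sham. Of 10 fibroblast and matrix genes, 9 could be measured in ventricle and all 9 were higher in CHF by the threshold given below, with a median log2 ratio of 3.27, while Tcf21, a transcription factor of cardiac fibroblasts, had 0 unique reads in both ventricle libraries, although its RPKM (reads per kb of length per 1 M reads), which is not limited to unique reads, was 0.646 in CHF and 0.445 in sham. In tissue RNA, fewer cells of a type and less RNA per cell cannot be told apart, and this holds for every ventricle value below. The part of these cell types in the values of the Wnt genes was not tested.

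The 250 bases upstream of the annotated start are shown for 4 of the genes with high ratios in CHF ventricle. In this way, start regions of antagonists and receptors can be set side by side. Fzd1 and Fzd7 were called by the rule given below, whereas Sfrp2 and Frzb reached 100 reads only in the CHF pool. Of the other called genes, Wnt9a had a window that is not shown, and Sfrp1 had none. The sequences come from RefSeq (GRCm38.p6), are written 5′ to 3′ on the strand of the gene, and have matches to CTTTGA (the core of TCF/LEF sites) and TATAAA (the TATA box) in capitals, on either strand, so that TCAAAG is CTTTGA read from the other strand.
Sfrp2 (chr3:83766071-83766320, plus strand): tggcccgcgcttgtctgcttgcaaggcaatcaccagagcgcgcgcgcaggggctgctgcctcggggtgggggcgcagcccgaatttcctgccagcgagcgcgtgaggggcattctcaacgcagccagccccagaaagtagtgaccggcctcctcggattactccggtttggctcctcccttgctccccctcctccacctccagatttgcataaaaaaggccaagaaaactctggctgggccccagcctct
Frzb (chr2:80447397-80447646, minus strand): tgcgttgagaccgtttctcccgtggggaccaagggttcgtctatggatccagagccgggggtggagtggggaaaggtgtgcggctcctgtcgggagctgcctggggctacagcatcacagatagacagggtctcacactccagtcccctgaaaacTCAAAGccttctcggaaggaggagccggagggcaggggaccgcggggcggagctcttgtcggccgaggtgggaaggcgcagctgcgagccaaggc
Fzd1 (chr5:4758217-4758466, minus strand): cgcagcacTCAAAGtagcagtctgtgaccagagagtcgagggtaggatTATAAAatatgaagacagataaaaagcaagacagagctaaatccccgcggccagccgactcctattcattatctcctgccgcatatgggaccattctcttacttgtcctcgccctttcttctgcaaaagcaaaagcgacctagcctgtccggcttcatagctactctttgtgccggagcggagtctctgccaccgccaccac
Fzd7 (chr1:59481897-59482146, plus strand): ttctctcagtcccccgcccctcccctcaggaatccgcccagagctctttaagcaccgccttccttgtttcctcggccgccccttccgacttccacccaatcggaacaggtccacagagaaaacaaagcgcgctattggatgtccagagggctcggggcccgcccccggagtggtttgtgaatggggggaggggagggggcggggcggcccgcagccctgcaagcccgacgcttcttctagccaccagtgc
Promoter windows were at hand for 27 of the 41 genes, in 30 windows. Their median was 21.5 CpG dinucleotides, against 6 in all 32851 windows. CTTTGA occurred in 5 of the 30 windows (those of Dkk1, Frzb, Fzd1, Wnt11 and Wnt5b), and in 13.8% of all windows. TATAAA occurred in 5 of 30 (Dkk1, Dkk2, Fzd1, Wif1 and Wnt11), and in 12.4% of all. The AP-1 motif TGANTCA was in 1 window (Wnt5b), and in 6.75% of all, and GGAATG, bound by TEAD factors, in 0, and in 12.6% of all. Fzd1 thus had both a CTTTGA and a TATAAA match in the stretch shown, Frzb only the first, and the stretches of Sfrp2 and Fzd7 neither.

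In the left ventricle, the antagonists Sfrp1, Sfrp2, Sfrp4, Frzb and Dkk3 and the receptors Fzd1, Fzd2 and Fzd7 were far more abundant in CHF than in sham, whereas Fzd4, Fzd5, Fzd6 and the ligand Wnt5a were nearly even. Summed over the 10 antagonists, 24681 unique reads came from CHF ventricle and 589 from sham ventricle, which is 1242 and 37.5 RPM. The 10 Frizzleds summed to 264 RPM in CHF and 156 in sham, the 2 co-receptors to 294 in CHF and 189 in sham, and the 19 ligands to 76.0 in CHF and 52.0 in sham. Per length, summed RPKM was 81.1 in CHF and 1.68 in sham for the antagonists, 44.6 in CHF and 21.3 in sham for the Frizzleds, 3.52 in CHF and 2.28 in sham for the ligands, and 2.46 in CHF and 1.58 in sham for the co-receptors. On this scale the antagonists stood first of the classes in the CHF library, where Sfrp2 alone had 64.7 RPKM. In the sham library they stood below the Frizzleds and ligands and close to the co-receptors. RPKM here divides by genomic span with introns. Per kb of annotated exons, the CHF sums were 406 for the antagonists and 49.5 for the Frizzleds. In sham the antagonists were then last with 10.5, against 15.5 for the co-receptors, 17.4 for the ligands and 26.4 for the Frizzleds.

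A gene counted as measured where both pools had 100 unique reads or more, and as higher or lower in CHF with a log2 ratio of RPKM of at least 0.9 in size, both being the limits of the study. With 1 library per condition there is no test, and the 95% intervals given are exact Clopper-Pearson intervals that cover counting error only. They come from unique gene reads and their library totals, whereas the ratios are of RPKM, so a ratio can lie off the middle of its interval or outside it. By this rule 12 of the 41 genes were measured in left ventricle, of which 4 (Sfrp1, Fzd1, Fzd7 and Wnt9a) were higher in CHF and 0 lower. Over all 9771 measured features 10.5% were higher and 1.54% lower, and the median log2 ratio was 0.22, against 0.57 for the 12 genes. Under TMM scaling or DESeq2 size factors, which move the median of all features by about -0.28 and -0.29 on the log2 scale to -0.05 and -0.07, 3 of the 12 were higher and 0 lower (of all features, 6.57% and 6.31% were higher, and 3.88% and 4.13% lower), and Wnt9a fell short of the threshold. The strongest differences of the family stand outside this count, because Sfrp2, Dkk3, Frzb, Sfrp4 and Fzd2 reached 100 reads only in the CHF pool. Such genes had to differ to be seen, so no count over them is offered in support, and each is given by its own values.

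Sfrp2, which encodes a soluble protein that binds Wnt ligands and also promotes procollagen processing, was the most abundant of the 41 genes in CHF ventricle. It had 11443 unique reads in CHF and 73 in sham, or 64.7 and 0.530 RPKM, a 122-fold difference (log2 6.93, interval 6.62 to 7.30). In hippocampus it had 53 reads in CHF and 55 in sham, and in prefrontal cortex 40 in CHF and 60 in sham. The CHF ventricle therefore stood alone among the 6 libraries, with the other 5 between 40 and 73 reads. GENCODE lists an antisense gene, Gm26771, across Sfrp2, and since the counting strand is not stated, reads of the pair cannot be told apart. The same holds for Wnt5a, Wnt6 and Wnt7b, which overlap the antisense genes Gm2670, Gm29539 and AU022754.

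Dkk3, a secreted glycoprotein of the Dickkopf family, had 5556 reads in CHF ventricle and 58 in sham ventricle (5.84 and 0.0782 RPKM), a log2 ratio of 6.22 (interval 5.87 to 6.64). In brain it was the most abundant of the 41 genes. Hippocampus had 17765 reads in CHF and 14809 in sham (14.7 and 13.8 RPKM), and prefrontal cortex 15114 in CHF and 19219 in sham (17.4 and 18.3 RPKM). It supplied 94.1 to 95.4% of all antagonist reads in the 4 brain libraries. With 280 RPM the CHF ventricle lay below every brain library, which held 645 to 857, and far above sham ventricle with 3.70.

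Frzb, also called Sfrp3, a Wnt-binding protein known from cartilage, had 2913 reads in CHF ventricle and 68 in sham ventricle (3.72 and 0.113 RPKM; log2 5.04, interval 4.73 to 5.45). Its 4 brain libraries ranged from 454 to 813 reads and 0.588 to 0.823 RPKM, above sham ventricle and below CHF ventricle. Sfrp4, linked to matrix-rich tissue, had 329 reads in CHF ventricle and 5 in sham ventricle, 51.3-fold higher in CHF (log2 5.68), and the 5 reads leave a wide interval of 4.46 to 7.33. In hippocampus it had 21 reads in CHF and 27 in sham, and in prefrontal cortex 20 in CHF and 34 in sham.

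Sfrp1 was the only antagonist with 100 reads in both ventricle pools. This Wnt-binding protein had 4340 reads in CHF and 308 in sham, or 5.15 and 0.468 RPKM (log2 3.46, interval 3.31 to 3.65), and 20 of the 9771 measured features had a larger ratio. Hippocampus had 110 reads in CHF and 87 in sham, and prefrontal cortex 229 in CHF and 282 in sham. Sham ventricle, with 19.6 RPM, was already above the brain libraries with 3.79 to 12.6, and CHF ventricle had 218.

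The remaining antagonists were scarce. Sfrp5, which binds Wnt5a and is known as an adipokine, went the other way in ventricle, with 4 reads in CHF and 31 in sham (log2 -3.31, interval -5.26 to -1.79), and was the only gene of the 41 with a ratio below -0.9 there among those with a read in both pools. Wif1, a Wnt-binding inhibitor, had 67 reads in CHF ventricle and 46 in sham ventricle (log2 0.14, interval -0.36 to 0.78). Dkk2 had 29 reads in CHF ventricle and 0 in sham ventricle, at least 7.63-fold higher in CHF against a floor of 3 reads. Dkk1 and Dkk4 had 0 reads in all 6 libraries, and 3 reads correspond to 0.116 to 0.191 RPM, so that levels under this limit could not be seen.

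**Figure D1:**
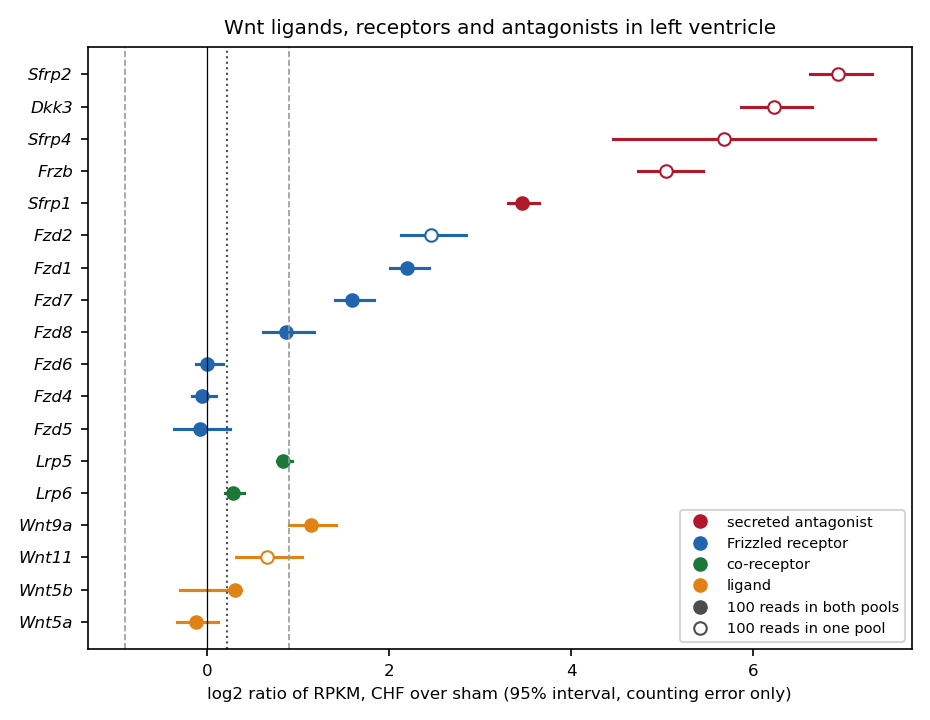
Log2 ratio of RPKM, CHF over sham, in left ventricle for the 18 genes with at least 100 unique reads in either pool, grouped by role, with 95% intervals for counting error; filled points have 100 reads in both pools, dashed lines mark 0.9 and -0.9 and the dotted line the median of all measured features (0.22). Intervals come from unique gene reads. Among filled points, the antagonist Sfrp1 lies at 3.46, the Frizzleds between -0.08 and 2.20 and the ligands between -0.12 and 1.14. The open points (Sfrp2, Dkk3, Frzb, Sfrp4, Fzd2 and Wnt11) reached 100 reads only in the CHF pool, which favors high ratios. The classes are therefore not ranked by them. The antagonists Sfrp5 (-3.31) and Wif1 (0.14) had fewer reads in both pools and are not shown.

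Among the Frizzleds, which are the receptors that Wnt ligands bind, 6 of 10 were measured in ventricle and 2 of them were higher in CHF. Fzd1 had 1255 reads in CHF and 213 in sham (13.0 and 2.82 RPKM, log2 2.20, interval 2.01 to 2.43). Fzd7 had 870 reads in CHF and 224 in sham (8.17 and 2.70 RPKM, log2 1.60, interval 1.40 to 1.84). Fzd2, close in sequence to these 2 and first described with them as one subfamily, had 551 reads in CHF and 78 in sham (6.86 and 1.25 RPKM, log2 2.46, interval 2.14 to 2.84). The intervals of all 3 lay above those of the other Frizzleds with reads in ventricle, of which Fzd8 reached highest (1.17).

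Fzd8 had 364 reads in CHF and 155 in sham, and its log2 ratio of 0.87 (interval 0.62 to 1.17) was just short of the threshold. Fzd4, a receptor for Wnts and for norrin in blood vessels, was the most abundant Frizzled of sham ventricle by RPKM and was nearly even, with 1011 reads in CHF and 818 in sham (7.95 and 8.26 RPKM, log2 -0.05, interval -0.17 to 0.10). Fzd6, a receptor of planar polarity, had 878 reads in CHF and 681 in sham (log2 0.01, interval -0.12 to 0.17). Fzd5 had 196 in CHF and 161 in sham (log2 -0.08, interval -0.37 to 0.25). Relative to the median of all features, the log2 ratios of these 3 receptors were -0.30 to -0.22. Below 100 reads in both pools, Fzd3 had 71 in CHF and 80 in sham, Fzd9 59 in CHF and 35 in sham, and Fzd10 0 in both.

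The co-receptors were both measured and neither passed the threshold. Lrp5 had 3823 reads in CHF and 1675 in sham (1.70 and 0.955 RPKM, log2 0.83, interval 0.77 to 0.93), next to the limit. Lrp6 had 2021 reads in CHF and 1292 in sham (0.759 and 0.622 RPKM, log2 0.29, interval 0.20 to 0.41), close to the median of all features. At a threshold of 0.8 in place of 0.9, Lrp5 and Fzd8 join the higher genes, which makes 6 of 12. Of all 9771 measured features 1275 were then higher and 199 lower, against 1027 and 150 at 0.9.

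Of the 19 ligands only 3 were measured in ventricle. Wnt9a had 475 reads in CHF and 168 in sham (0.806 and 0.366 RPKM, log2 1.14, interval 0.90 to 1.42), and 0.87 under TMM scaling. Wnt5a, the main ligand of β-catenin-independent signaling, was nearly even, with 354 reads in CHF and 300 in sham (0.80 and 0.868 RPKM, log2 -0.12, interval -0.33 to 0.12). Wnt5b had 169 unique reads in CHF and 130 in sham. Its RPKM ratio (log2 0.31) rests mostly on reads not counted as unique, as 11.5 to 31.0% of its gene reads were unique over the 6 libraries. Its listed span holds the gene Fbxl14 on the other strand, and where the other reads come from was not tested.

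The other ligands were below 100 reads in at least 1 ventricle pool. Wnt11, known for its part in heart formation, had 197 reads in CHF and 97 in sham (log2 0.66, interval 0.32 to 1.05), and Wnt2b 89 in CHF and 80 in sham. Wnt4 had 91 reads in CHF and 9 in sham (log2 2.98, interval 2.01 to 4.17), Wnt10b 74 in CHF and 12 in sham (log2 2.26, interval 1.39 to 3.30), and Wnt2 21 in CHF and 2 in sham (log2 3.03, interval 1.02 to 6.19). In these 3 the CHF library was higher at counts too low for the threshold to be applied. Wnt3a, Wnt7a and Wnt8a had 0 reads in both ventricle libraries, and the remaining 8 ligands had at most 21 reads.

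**Figure D2:**
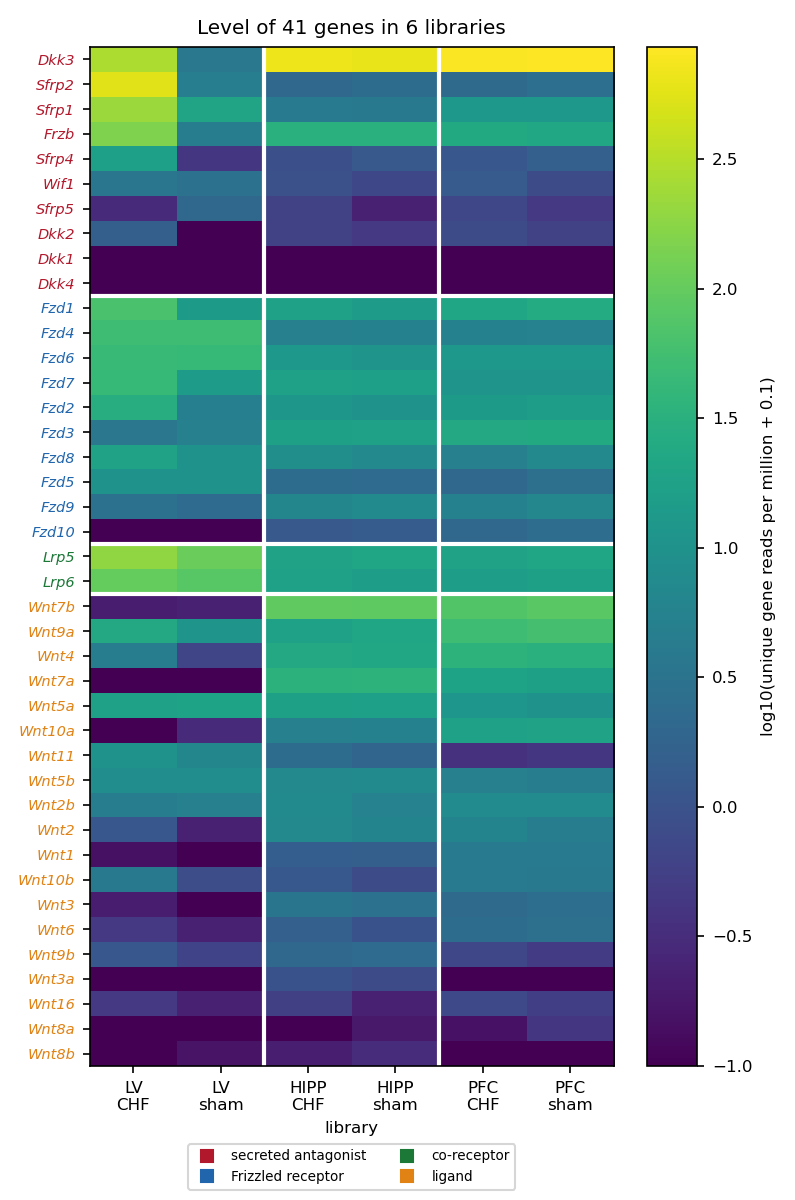
RPM of the 41 genes, from unique gene reads (log10 scale after adding 0.1) in left ventricle (LV), hippocampus (HIPP) and prefrontal cortex (PFC), CHF beside sham, with gene names colored by role. Dkk3 leads all 4 brain libraries with 645 to 857 RPM, Sfrp2 leads CHF ventricle with 576, and Wnt7a and Wnt7b are seen in brain and are near 0 in ventricle.

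Levels can be compared between genes only per length, and the length behind the deposited RPKM is the genomic span with introns, which favors genes of a single exon. That applies to 6 of the 10 Frizzleds. By RPKM, the order in CHF ventricle was Sfrp2 (64.7), Fzd1 (13.0), Fzd7 (8.17), Fzd4 (7.95), Fzd2 (6.86), Dkk3 (5.84), Sfrp1 (5.15) and Fzd8 (4.91), and in sham ventricle Fzd4 (8.26) stood first, with Fzd1 (2.82), Fzd7 (2.70) and Fzd8 (2.69) next, whose exact Poisson intervals overlap (2.46 to 3.23, 2.36 to 3.08 and 2.28 to 3.14). Division by the length of the annotated exons instead is a scale chosen after the data were seen that counts intron reads too. On it CHF ventricle was led by Sfrp2 (240), Dkk3 (74.8), Sfrp1 (44.9) and Frzb (40.7), and sham ventricle by Lrp5 (9.98). The leaders in CHF ventricle all stand in the antagonist class, where Dkk3 is placed by family. In brain, Dkk3 was first on both scales in all 4 libraries, with 13.8 to 18.3 RPKM, and the next place went to a Frizzled by RPKM and to Wnt7b by exon length.

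In the brain, none of the measured genes of the family reached the threshold between CHF and sham in either region. In hippocampus 21 genes were measured, with log2 ratios from -0.25 (Fzd9) to 0.46 (Wnt2b) and a median of 0.08, where 0.0541% of 11086 features were higher, 0.135% lower, and the median was 0.03. In prefrontal cortex 18 were measured, with log2 ratios from -0.39 (Fzd1) to 0.37 (Wnt2) and a median of -0.03, where 0.0093% of 10747 features were higher and 0.0465% lower, and the median was -0.01. With so few features called in brain, 0 of 21 and 0 of 18 do not set the family apart. Among genes with a read in both pools but too few to be measured, Sfrp5 (13 reads in CHF and 3 in sham) and Wnt16 (12 in CHF and 3 in sham) had ratios above 0.9 in hippocampus, and Wnt8b (3 in CHF and 5 in sham) in hippocampus and Wnt8a (1 in CHF and 7 in sham) in prefrontal cortex had ratios below -0.9. A model of all 6 libraries with tissue as a block, added after seeing the data, asks for a difference shared by the 3 tissues and leaves 2 residual degrees of freedom. In it 0 of 36 genes passed in either direction (edgeR quasi-likelihood test, smallest adjusted p 0.937, 0 at an unadjusted p under 0.05), as did 0% of 17411 features, of which 321 had an unadjusted p under 0.05.

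Small differences with an interval clear of 0 were seen in 6 of the 21 hippocampal genes, 5 above 0 and 1 below, where 22.5% of all measured features had an interval above 0 and 13.3% below. Wnt2b, a ligand of the β-catenin pathway, had 192 reads in CHF and 125 in sham (log2 0.46, interval 0.12 to 0.78), and Fzd8 228 in CHF and 158 in sham (log2 0.36, interval 0.06 to 0.66). Fzd1 (log2 0.27), Lrp6 (0.24) and Dkk3 (0.09) were also above 0, and Wnt9a, with 454 reads in CHF and 465 in sham, was below 0 (log2 -0.21, interval -0.40 to -0.02). In prefrontal cortex, 4 of 18 had intervals below 0 and 0 above, where 15.8% of all measured features were below and 12.3% above. Fzd1 had 377 reads in CHF and 596 in sham (log2 -0.39, interval -0.58 to -0.20), Wnt9a 938 in CHF and 1321 in sham (log2 -0.22, interval -0.34 to -0.10), Wnt7b 1363 in CHF and 1906 in sham (log2 -0.21, interval -0.31 to -0.11), and Dkk3 a log2 ratio of -0.07 (interval -0.10 to -0.04). These intervals hold no spread between mice, and differences of this size were not tested against it. Antagonists summed to 727 RPM in CHF and 685 in sham hippocampus, and to 857 in CHF and 897 in sham prefrontal cortex. Of these reads 94.1 to 95.4% were from Dkk3.

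The libraries also allow the family to be compared between tissues, where the CHF and the sham pool of a tissue serve as its 2 samples and the condition is a term of the model (edgeR quasi-likelihood test, Benjamini-Hochberg adjustment over all features). The p-values rest on how the 2 pools of a tissue differ once a CHF-against-sham shift shared by the tissues is taken out. The estimate of this spread also borrows from other genes. The fit of all 6 libraries leaves 2 residual degrees of freedom, and the fit of the 4 brain libraries fewer. No spread between mice is held. The names of the deposited tables carry a lane code that is shared within a tissue and differs between tissues. The study's methods describe 4 samples pooled over 2 lanes instead, so whether lane and tissue coincide is not settled by the sources, and the part of lane in these differences was not tested.

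Between the brain regions, ligands split into a group with more RNA in hippocampus and a group with more in prefrontal cortex. Of 37 genes tested, 9 were higher in hippocampus (7 ligands, Fzd7 and Frzb) and 12 were lower (6 ligands, 4 Frizzleds, Sfrp1 and Dkk3), where 15.1% of 16554 features were higher and 16.4% lower. The calls depend on the libraries fitted. With the ventricle libraries in the same edgeR fit 0 of 36 genes passed, where 0.862% of all features did. The smallest adjusted p of this edgeR fit was 0.0542, with 5 genes higher and 5 lower at an unadjusted p under 0.05. The DESeq2 Wald test on the brain libraries called 6 genes higher and 7 lower. It called 14.8% of all features, against 31.6% in the main fit.

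Wnt11 was the gene with the largest fitted difference towards hippocampus among those with reads in both regions. It had 61 reads in CHF and 41 in sham hippocampus, against 5 in CHF and 7 in sham prefrontal cortex (log2 fold change 2.80 ± 0.42 SE, edgeR adjusted p = 1.29e-07). Wnt9b, a ligand known from kidney development, had 53 reads in each hippocampal library, against 11 in CHF and 9 in sham prefrontal cortex (2.15 ± 0.37, edgeR adjusted p = 3.07e-06). Wnt7a, which acts at synapses and on brain vessels, had 866 and 787 reads in CHF and sham hippocampus, against 349 and 384 in CHF and sham prefrontal cortex (0.93 ± 0.11, edgeR adjusted p = 1.02e-10). Wnt3a, the ligand that hippocampal development requires, had 23 and 16 reads in CHF and sham hippocampus and 0 in both prefrontal libraries, at least 5.50-fold higher in the CHF pools and at least 5.21-fold in the sham pools against a floor of 3 reads per library.

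Fzd7 (0.68 ± 0.14), Wnt5a (0.65 ± 0.14), Wnt5b (0.61 ± 0.19), Frzb (0.44 ± 0.10) and Wnt7b (0.23 ± 0.08) completed the genes higher in hippocampus. The value of Wnt5b rests on unique reads, which were 11.5 to 16.8% of its gene reads in the brain libraries. Its RPKM was 0.354 and 0.352 in CHF and sham hippocampus, against 0.283 and 0.311 in CHF and sham prefrontal cortex. Wnt7b, with 2409 and 2090 reads in CHF and sham hippocampus against 1363 and 1906 in CHF and sham prefrontal cortex, had the most reads of the ligands in both regions. By RPKM it was first of the ligands in hippocampus, whereas in prefrontal cortex Wnt9a was higher, with 1.75 RPKM in CHF and 2.04 in sham against 1.49 and 1.73 for Wnt7b.

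On the other side, Wnt10b had 29 and 16 reads in CHF and sham hippocampus against 76 and 86 in CHF and sham prefrontal cortex (-2.11 ± 0.29, edgeR adjusted p = 9.36e-09), and Wnt10a 132 and 120 against 325 and 417 (-1.79 ± 0.16, edgeR adjusted p = 4.27e-15). Sfrp1 was lower in hippocampus too (-1.62 ± 0.18), with the reads given above. Wnt1, the first described mammalian Wnt, had 36 and 33 reads in CHF and sham hippocampus against 74 and 95 in CHF and sham prefrontal cortex (-1.52 ± 0.26). Wnt9a had 454 and 465 reads in CHF and sham hippocampus against 938 and 1321 in CHF and sham prefrontal cortex (-1.52 ± 0.10, edgeR adjusted p = 8.07e-21). Wnt6 (-1.09 ± 0.30), Fzd10 (-0.80 ± 0.30), Wnt4 (-0.54 ± 0.10), Fzd1 (-0.51 ± 0.12), Fzd3 (-0.46 ± 0.12), Fzd2 (-0.41 ± 0.14) and Dkk3 (-0.32 ± 0.08) were lower by less. Dkk3, the most abundant of all, thus differed little between the regions. Lrp5, Lrp6, Fzd4, Fzd5 and Fzd6 had fitted differences between -0.08 and 0.04 and did not pass the test.

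**Figure D3:**
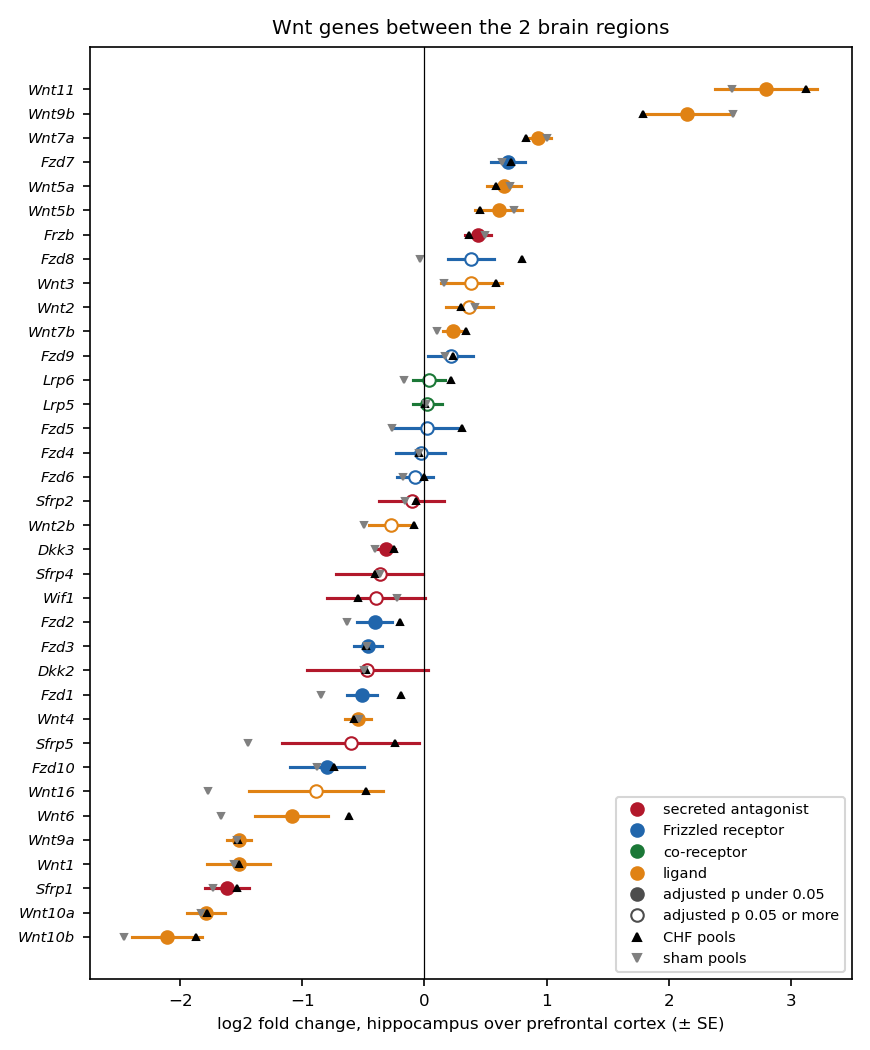
Log2 fold change, hippocampus over prefrontal cortex, with its SE for 36 genes (Wnt3a, with 0 reads in prefrontal cortex, is left out), colored by role; filled points passed the test, and small triangles give the difference within the CHF pools and within the sham pools. Wnt11 (2.80) and Wnt9b (2.15) lie at the top, and Wnt10b (-2.11) and Wnt10a (-1.79) at the bottom.

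Wnt genes often lie in pairs on a chromosome, and 4 pairs of the family are less than 50 kb apart (GRCm38). Wnt1 and Wnt10b on chromosome 15 are 11.7 kb apart and were both lower in hippocampus, as were Wnt10a and Wnt6 on chromosome 1, which are 6.70 kb apart. On chromosome 11 the neighbors differed: Wnt3a was higher and Wnt9a lower in hippocampus at a distance of 16.2 kb, and of Wnt9b and Wnt3, 24.4 kb apart, Wnt9b was higher and Wnt3 had a log2 fold change of 0.38 ± 0.25 that did not pass the test. These pairs were looked at as a description, and no test of position was made.

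Between left ventricle and brain, Fzd4, both co-receptors and Wnt11 were higher in ventricle, and Wnt7a and Wnt7b were lower there. Of 36 genes tested, 13 were higher in ventricle and 12 lower, where 37.2% of 17411 features were higher and 38.4% lower, so the share of the family that differed was near that of all features. The higher genes were 5 Frizzleds, both co-receptors, 3 antagonists and 3 ligands, and the lower genes 9 ligands and 3 Frizzleds. Fzd4 had 1011 and 818 reads in CHF and sham ventricle against 97 to 131 in the 4 brain libraries (log2 fold change 3.41 ± 0.13, edgeR adjusted p = 5.68e-05). Lrp5 (3.04 ± 0.19), Lrp6 (2.60 ± 0.12), Fzd5 (2.23 ± 0.21) and Fzd6 (1.99 ± 0.14) were higher too, in the CHF and in the sham pools. Fzd7 (1.07 ± 0.31) and Fzd8 (1.11 ± 0.26) were higher chiefly through the CHF ventricle, since within the sham pools their differences were 0.12 and 0.50.

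Wnt11 was the ligand with the largest difference towards the heart (3.44 ± 0.24, edgeR adjusted p = 0.000228), with 3.64 within CHF pools and 3.05 within sham pools. Wnt5a (0.58 ± 0.17) and Wif1 (2.04 ± 0.30) were also higher, and Wnt5b (0.66 ± 0.20) reversed when exon reads were counted in place of unique gene reads (-0.29). For Wnt5a, CHF and sham ventricle had 17.8 and 19.1 RPM. Hippocampus was close with 17.4 and 16.4, and prefrontal cortex lower with 11.6 and 10.1. The differences of Sfrp1 (3.63 ± 0.76) and Sfrp2 (5.91 ± 1.92) rest mainly on the CHF ventricle, as they were 4.91 and 8.10 within CHF pools against 1.51 and 0.88 within sham pools. For Dkk3 (-3.21 ± 1.58, edgeR adjusted p = 0.12) the difference did not pass the test, with -1.42 within CHF pools and -7.65 within sham pools.

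Wnt7b had 2 reads in each ventricle library against 1363 to 2409 in the brain libraries (-9.38 ± 0.23, edgeR adjusted p = 3.95e-05). Wnt7a, with 0 ventricle reads, was at least 222-fold and 179-fold higher in hippocampus than in ventricle for the CHF and sham pools, and at least 125-fold and 89.5-fold higher in prefrontal cortex. Fzd10, with 0 ventricle reads and 30 to 54 brain reads, was at least 6.83-fold higher in each brain library. Wnt1, Wnt3 and Wnt10a had at most 3 reads in a ventricle library. Wnt2 (-3.25 ± 0.53), Wnt4 (-3.46 ± 0.59), Wnt6 (-2.72 ± 0.49), Fzd3 (-2.10 ± 0.23) and Fzd9 (-1.16 ± 0.23) were lower in ventricle as well. Wnt9a (-0.83 ± 0.28) was also called lower, with -0.32 within CHF pools and -1.69 within sham pools. In the CHF pools its ventricle level of 23.9 RPM lay above hippocampus (17.6) and below prefrontal cortex (50.6).

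The genes around this family in the pathway were described by lists of known members, whose counts stand against the 10.5% higher and 1.54% lower of all measured features in ventricle. There, the machinery of Wnt secretion had 1 of 4 measured genes higher in CHF, Wls, the carrier that takes Wnt proteins to the cell surface, with 2030 reads in CHF and 762 in sham (log2 1.06). Of the R-spondins and their receptors 3 were measured, with 0 higher and 1 lower, Lgr6 (log2 -0.98), a receptor for R-spondins, while Lgr4 (-0.16) and Znrf3 (-0.03), a ligase that removes Frizzleds, were near even. Among other secreted or membrane modulators 2 of 6 were higher, Serpinf1 (log2 3.41), which encodes pigment epithelium-derived factor, and Igfbp4 (2.22), a binding protein of insulin-like growth factors that can also inhibit Wnt signals, and 0 lower.

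Further lists hold the intracellular part of the pathway. Of 24 measured genes of β-catenin transduction 1 was higher, the corepressor Tle3 (log2 1.34), and 0 lower, and their median of 0.26 was close to 0.22 for all measured features. Next by size were Dvl2 (0.89), a relay protein below Frizzled, Pygo2 (0.81) and Tcf7l1 (0.55), and Ctnnb1, the gene of β-catenin itself, had 19.6 RPKM in CHF and 14.7 in sham (log2 0.41). Only 3 target and feedback genes were measured, with Cd44 (1.06) higher, Ccnd1 (0.60), the gene of cyclin D1, and Znrf3 not called. Of 12 measured genes of β-catenin-independent signaling Prickle2 (1.02) was higher and Celsr2 (-1.44), a cadherin of planar polarity, lower, with Ryk (0.71) and Celsr1 (-0.51) next. Under TMM scaling Wls, Cd44 and Prickle2 fell short of the threshold.

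As in the family itself, several pathway genes had few sham reads and many CHF reads in ventricle; these were named after their values were seen. Nkd2, which encodes a feedback inhibitor of Dishevelled, had 679 reads in CHF and 38 in sham, Cthrc1, a secreted protein of collagen-producing cells, 236 in CHF and 2 in sham, and Rspo1, an R-spondin, 162 in CHF and 9 in sham. Of the target and feedback genes, the proto-oncogene Myc had 338 reads in CHF and 56 in sham (log2 2.23, interval 1.84 to 2.69), Apcdd1, a membrane inhibitor of Wnt signals, 343 in CHF and 59 in sham (log2 2.18), and Nkd1, a relative of Nkd2, 139 in CHF and 30 in sham (log2 1.85). Axin2, a widely used target gene of β-catenin, had 193 reads in CHF and 97 in sham (log2 0.63, interval 0.29 to 1.02), below the threshold. Of the rest of that list, Wisp1 (162 in CHF and 55 in sham), Lgr5 (33 and 4) and Fosl1 (22 and 2) were higher in CHF. Tcf7 (26 and 17), Rnf43 (5 and 5) and Notum (17 and 25) had intervals that include 0. Lef1 and Sp5 had at most 3 reads. In both brain regions 0 measured genes of these pathway lists reached the threshold. Of all measured features, 0.0541% were higher and 0.135% lower in hippocampus, and 0.0093% higher and 0.0465% lower in prefrontal cortex. With so few features called, this does not set the lists apart.

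**Figure D4:**
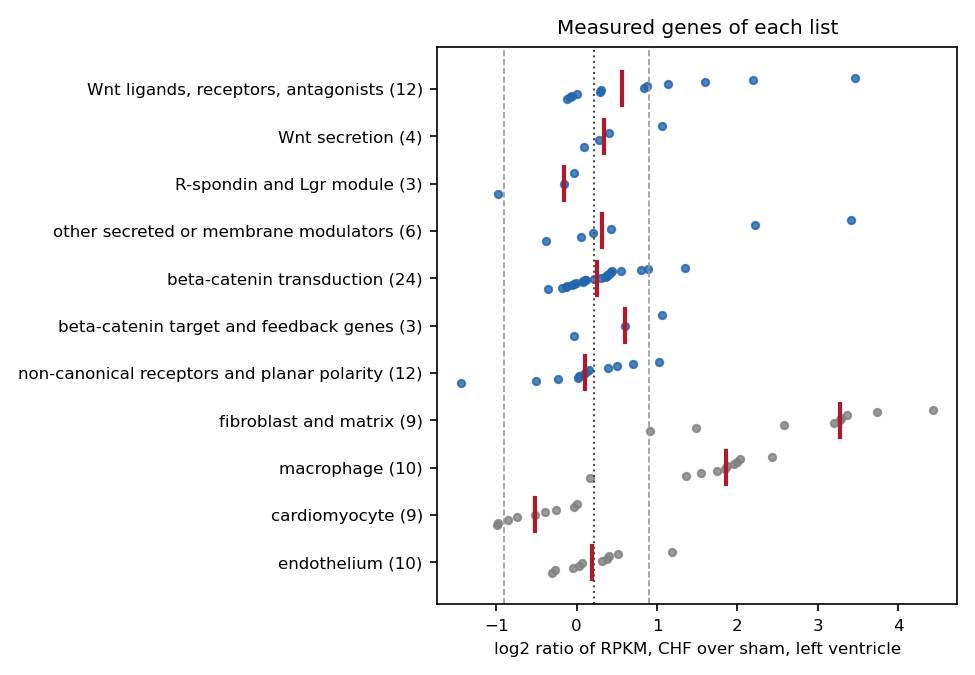
Log2 ratio of RPKM, CHF over sham, in left ventricle for every measured gene of the family, of 6 pathway lists (blue) and of 4 cell marker lists (grey), with the number measured in brackets; red bars are medians, dashed lines mark 0.9 and -0.9 and the dotted line the median of all measured features (0.22). The transduction list sits around 0.26, the 12 family genes around 0.57 and the fibroblast and matrix list around 3.27.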

How the data were processed

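The authors depleted total RNA of ribosomal RNA, made stranded libraries, sequenced single reads and mapped them to GRCm38.p1 with CLC Genomics Workbench (version and counting strand: not given in the sources used here). For each feature, the deposited tables hold counts of reads mapping uniquely to the gene, of all its reads and of its exon reads. The RPKM deposited by the authors divides exon reads by the listed length and total gene reads; the listed length equals the genomic span for all 41 genes, so intron reads are included, and the values were recomputed to within 1e-06. The authors' tables of comparisons hold log2 ratios and were not used.

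The 41 genes and the lists were chosen with earlier results of these data known. CHF and sham were compared by log2 ratios of RPKM without a test, after a minimum of 100 unique reads in both pools and past 0.9 in size. Tissues were compared on unique gene reads with edgeR 4.0.16 (TMM, quasi-likelihood, low counts filtered, R 4.3.3), with DESeq2 1.42.0 as an alternative. The model holds the condition as a block: pools of one condition share a pool number over the tissues, and the sources do not say whether the same mice gave all 3 tissues. Values per library are given for genes called between CHF and sham, for the 8 highest by RPKM and for up to 6 with the largest called difference per contrast and direction; of each pathway list, up to 4 measured genes with the largest ratios. Annotation came from GENCODE vM21 and RefSeq (GRCm38.p6). Intervals come from unique gene reads and cover counting error only. Tests were tried on simulated counts. Alternatives were 11 for CHF against sham and 7 for tissues, besides a read minimum in the sham pool, exon lengths and a model of CHF against sham with tissue as a block, which were added after seeing the data. Python 3.11.15, pandas 2.3.3, scipy 1.17.1 and matplotlib 3.10.9 were used.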

Additional observations from a re-analysis of the deposited data

Results flagged for a closer look

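For 4 genes the CHF over sham log2 ratio of RPKM had intervals on opposite sides of 0 in different tissues. Each tissue has 1 library per condition, the intervals cover counting error only, and the difference was not tested. Intervals clear of 0 were common among all measured features. In hippocampus 22.5% lay above 0 and 13.3% below, and in prefrontal cortex 12.3% above and 15.8% below. The share of all features with intervals on opposite sides is not given here, so the 4 genes do not set the family apart. Dkk3 was 6.22 in left ventricle and 0.09 in hippocampus, against -0.07 in prefrontal cortex. Fzd1 was 2.20 in left ventricle and 0.27 in hippocampus, against -0.39 in prefrontal cortex. Fzd8 was 0.87 in left ventricle and 0.36 in hippocampus, against -0.48 in prefrontal cortex, where its CHF pool had 94 reads. Wnt9a was 1.14 in left ventricle, against -0.21 in hippocampus and -0.22 in prefrontal cortex.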

How the results depend on the processing

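The number of the 41 genes higher in CHF left ventricle depends on the read minimum, and so does the number over all features. It was 4 of 12 in the report, beside 1027 of 9771 features. A minimum of 50 reads in both pools gave 8 of 19, beside 1469 of 11021 features. The same minimum in the sham pool alone also gave 8 of 19. It held 11085 features with a median log2 ratio of 0.25. The number of these features that were higher is not given here, so this count is not offered in support. With 100 reads in either pool it was 9 of 18, beside 1882 of 11193 features. That setting lets genes in through the CHF pool alone, so its count is not offered in support. With 1 read in both pools 15 of 30 were higher and 1 lower, beside 3372 and 647 of 15132 features. This last minimum gave 2 of 38 higher and 1 lower in hippocampus, beside 538 and 488 of 16194 features. In prefrontal cortex 0 of 37 were higher and 1 lower, beside 422 and 443 of 16111 features. Scalings gave 3 or 4 higher genes and 0 lower in ventricle. Of all called features in ventricle 87.3% were higher, against 62.9% with TMM, 60.4% with DESeq2 size factors and 74.0% with totals that leave out the 10 features with the most reads. Within a tissue CHF and sham cannot be paired, as each has 1 library per condition; the model with tissue as a block called 0 genes.

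Hippocampus over prefrontal cortex gave 9 higher and 12 lower genes. All 6 libraries in one fit gave 0 and 0, and the DESeq2 Wald test gave 6 and 7. Of all features 31.6%, 0.862% and 14.8% were called, in the same order. The cause of these differences was not tested. Without the replicate block the counts were 9 and 12, and for ventricle over brain 14 and 12 in place of 13 and 12, and no call was lost. Of all features 30.2% and 77.8% were then called, against 31.6% and 75.6% with the block. Wnt5b reversed between ventricle and brain with exon reads (-0.29 in place of 0.66), most of which are not unique for this gene. Leaving out a library leaves 1 pool in a tissue, so the values within CHF pools and within sham pools take its place.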
